A study of Homo sapiens with 27 samples.

Results

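The genes described here were nearly silent in 786-O control cells and were counted in at least some libraries of KDM5C or KDM5D mutant cells. A gene was taken when its counts summed to at least 120 over all 27 libraries while each of the 3 sgCtrl libraries held at most 3. That gave 216 of the 17016 genes with such a sum. Leaving out the 5 genes whose names start with HOX, COL or PCDH (no gene lay on chromosome Y) left 211 genes. Both limits are measured values, so silence in sgCtrl cells is the way the genes were chosen and not a result. Of the 211 genes, 108 reached the limit of 3 counts in at least 1 sgCtrl library and 14 had 0 counts in all of them.

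KDM5C, on the X chromosome, and its homologue KDM5D, on the Y chromosome, encode demethylases that remove methyl groups from lysine 4 of histone H3, a mark found at active genes. Whether the genes described here changed through this mark was not tested. KDM5C is recurrently mutated in clear cell renal cell carcinoma (ccRCC), and 786-O is an established ccRCC cell line.

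All populations were 786-O cells infected with MuLE lentivirus carrying spCas9, an sgRNA and a puromycin or neomycin resistance gene. They were the control population sgCtrl, the single mutants sgKDM5C_4, sgKDM5C_5, sgKDM5D_2 and sgKDM5D_4, and the double mutants sgKDM5C_4_sgKDM5D_2, sgKDM5C_4_sgKDM5D_4, sgKDM5C_5_sgKDM5D_2 and sgKDM5C_5_sgKDM5D_4. The methods place both sgKDM5C guides in the same exon and the sgKDM5D guides in different exons. Each population was sequenced as 3 libraries. Each guide or pair of guides was represented by 1 population, so a guide and the history of the population that carries it cannot be told apart. The labels do not say whether the 3 libraries came from separate cultures, and p-values measure the spread between these libraries. In bulk RNA a low level can come from few cells or from little RNA per cell, and these cannot be told apart.

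Library totals ranged from 20172482 to 43383929 counts (median 26290323). The targeted KDM5C mRNA was at 124 ± 7.27 CPM (SD, n = 3; a CPM is a share of the TMM-scaled library total) in sgCtrl cells, at 33.2 to 43.6 CPM in the 6 populations with an sgKDM5C guide and at 116 to 127 CPM in the sgKDM5D single mutants. KDM5D mRNA was lowest in sgCtrl cells (12.8 ± 1.58 CPM) and was at 19.9 to 44.5 CPM in the mutants, so it gives no check of the sgKDM5D labels. Of 11 kidney and ccRCC markers, 10 were in the table, and their summed level, most of it VIM (1518 to 2065 CPM), lay between 2076 and 2797 CPM. Single markers differed between populations: PAX2 ranged from 7.89 to 11.5 CPM in sgKDM5D_4 to 28.5 to 38.5 CPM in sgKDM5C_5_sgKDM5D_2 (22.7 to 25.4 CPM in sgCtrl). EGLN3 ranged from 15.9 to 19.7 CPM in sgKDM5D_4 to 127.7 to 166.9 CPM in sgKDM5C_5_sgKDM5D_2 (39.1 to 59.2 CPM in sgCtrl). VCAM1 ranged from 9.19 to 13.4 CPM in sgKDM5C_5_sgKDM5D_4 to 209.5 to 268 CPM in sgKDM5D_4 (50.01 to 69.9 CPM in sgCtrl). Summed endothelial markers were at 1.33 to 1.74 CPM in sgKDM5D_4 libraries and at most 0.764 CPM elsewhere, with TEK at 0.560 to 0.685 CPM and TIE1 at 0.343 to 0.735 CPM. The part of these differences in the results was not tested. Summed leukocyte markers were at most 0.802 CPM. The 4 libraries sgCtrl replicate 2, sgKDM5C_5 replicate 2, sgKDM5C_4_sgKDM5D_2 replicate 1 and sgKDM5C_4_sgKDM5D_4 replicate 3 are the last columns of the table and loaded from 0.254 to 0.444 on the first component of the variance within populations (24.1% of it), and they are called the 4 libraries that stood apart. Libraries at the other end were not set apart, although sgCtrl replicate 1 (-0.27) and sgKDM5C_5 replicate 1 (-0.276) loaded farther from 0 than the lowest of the 4.

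The promoters of 5 genes are shown as RefSeq gives them (build GRCh38.p14, from 250 bases before to 50 bases after the start, 5′ to 3′ on the strand of the gene), because each gene stands for one of the patterns described further on. PDPN had the highest level of the genes expressed in sgKDM5D_4 cells and GATA3 the highest mean of the transcription factors there, AGMAT was shared by the populations with sgKDM5C_4, CXCR4 was present in the largest number of populations, and SGIP1 had the highest level of the genes expressed only in the double mutant with sgKDM5C_4 and sgKDM5D_4. They lie at chr1:13583507-13583806 (PDPN, plus strand), chr10:8045083-8045382 (GATA3, plus strand), chr1:15585002-15585301 (AGMAT, minus strand), chr2:136118100-136118399 (CXCR4, minus strand) and chr1:66533111-66533410 (SGIP1, plus strand). Capitals mark CG dinucleotides, the bases where promoter DNA can be methylated.
PDPN: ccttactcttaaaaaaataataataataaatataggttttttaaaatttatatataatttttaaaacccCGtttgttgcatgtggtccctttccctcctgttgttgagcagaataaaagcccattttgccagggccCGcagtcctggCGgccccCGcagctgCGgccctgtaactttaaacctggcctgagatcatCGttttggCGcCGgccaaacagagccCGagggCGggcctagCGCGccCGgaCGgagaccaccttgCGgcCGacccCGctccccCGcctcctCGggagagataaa
GATA3: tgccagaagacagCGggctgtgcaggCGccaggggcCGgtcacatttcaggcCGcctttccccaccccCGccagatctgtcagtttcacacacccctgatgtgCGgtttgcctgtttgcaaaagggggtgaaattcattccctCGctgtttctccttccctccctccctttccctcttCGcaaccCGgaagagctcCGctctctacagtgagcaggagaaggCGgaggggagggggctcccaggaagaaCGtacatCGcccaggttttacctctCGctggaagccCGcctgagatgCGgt
AGMAT: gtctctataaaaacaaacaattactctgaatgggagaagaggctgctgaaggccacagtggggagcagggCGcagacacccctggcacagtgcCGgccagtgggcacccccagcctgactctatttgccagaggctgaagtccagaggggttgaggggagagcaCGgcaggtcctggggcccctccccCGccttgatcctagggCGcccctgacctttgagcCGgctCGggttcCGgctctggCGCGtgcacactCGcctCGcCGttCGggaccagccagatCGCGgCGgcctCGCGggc
CXCR4: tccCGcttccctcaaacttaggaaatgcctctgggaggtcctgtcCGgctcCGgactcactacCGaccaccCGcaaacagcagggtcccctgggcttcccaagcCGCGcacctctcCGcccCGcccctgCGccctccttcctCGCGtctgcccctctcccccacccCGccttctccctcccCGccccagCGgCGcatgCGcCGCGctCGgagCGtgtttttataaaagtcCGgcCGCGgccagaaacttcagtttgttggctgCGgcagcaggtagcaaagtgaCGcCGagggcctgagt
SGIP1: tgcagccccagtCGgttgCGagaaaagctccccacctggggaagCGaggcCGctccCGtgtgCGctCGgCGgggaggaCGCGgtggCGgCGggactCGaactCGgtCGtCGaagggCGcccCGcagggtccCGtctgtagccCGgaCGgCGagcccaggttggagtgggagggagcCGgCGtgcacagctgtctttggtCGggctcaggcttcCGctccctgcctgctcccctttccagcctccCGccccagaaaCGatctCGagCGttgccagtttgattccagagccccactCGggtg
The number of CG dinucleotides was 16 for GATA3, 19 for PDPN, 19 for AGMAT, 27 for CXCR4 and 31 for SGIP1. The SGIP1 promoter was the densest and the GATA3 promoter the least dense of the 5. With a CpG-rich window defined by a GC content of at least 50% and an observed to expected CpG ratio of at least 0.6 over the 300 bases, PDPN, CXCR4 and SGIP1 met both limits. GATA3 and AGMAT did not, with ratios of 0.584 and 0.588.

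A gene was counted as expressed in a population when each of its 3 libraries reached 0.5 CPM, on library sizes scaled by TMM. In this sense 97 of the 211 genes were expressed in at least 1 mutant population and 114 in none. Most of the 97 were expressed in a single population: 76 genes in 1 population, 11 in 2, 4 in 3, 5 in 4 and 1, CXCR4, in 5. No gene was expressed in all 8 mutant populations, in all 6 populations with an sgKDM5C guide or in all 6 with an sgKDM5D guide. For comparison, between 78.4% and 80.9% of all 17016 genes were expressed in each mutant population.

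The number of expressed genes differed widely between populations that carry guides to the same gene. sgKDM5D_4 cells expressed 58 of the 211 genes, of which 51 were expressed in no other population. sgKDM5D_2 cells, mutant in the same gene, expressed 1, the myosin heavy chain gene MYH8. The sgKDM5C_4 and sgKDM5C_5 cells expressed 9 and 6. Among double mutants the counts were 16 for sgKDM5C_4_sgKDM5D_2, 21 for sgKDM5C_4_sgKDM5D_4, 14 for sgKDM5C_5_sgKDM5D_2 and 10 for sgKDM5C_5_sgKDM5D_4. Of the 58 genes of sgKDM5D_4 cells, 4 were also expressed in sgKDM5C_4_sgKDM5D_4 cells and 1 in sgKDM5C_5_sgKDM5D_4 cells, which carry the same guide. The count for sgKDM5D_2 was 9 at 0.25 CPM and 0 at 1 CPM, whereas that for sgKDM5D_4 stayed within 1.5 times of 58 at both limits. At 0.25 CPM the counts of sgKDM5C_4_sgKDM5D_2, sgKDM5C_4_sgKDM5D_4 and sgKDM5C_5_sgKDM5D_2 rose by more than 1.5 times, and so by more than that of sgKDM5D_4. The 58 genes of sgKDM5D_4 are its count at 0.5 CPM and are not set against counts at 0.25 CPM. How far sgKDM5D_4 stands apart from them in these counts thus depends on the limit.

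**Figure D1:**
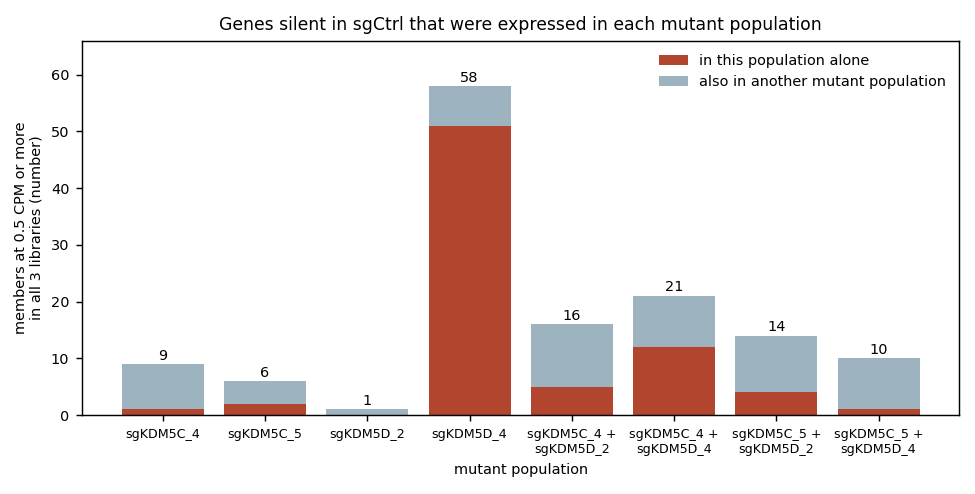
Number of the 211 genes expressed in each mutant population (at least 0.5 CPM in each of 3 libraries), split into genes expressed in that population alone and genes shared with another. The bar of sgKDM5D_4 reaches 58 genes, 51 of them in no other population, and the bar of sgKDM5D_2 holds 1.

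The summed level of the 211 genes was 10.8 to 13.0 CPM in the sgCtrl libraries, 240 to 253 CPM in the sgKDM5D_4 libraries and 31.0 to 36.0 CPM in the sgKDM5D_2 libraries. The other mutant libraries lay between 35.9 and 86.3 CPM, except sgKDM5C_4_sgKDM5D_2 replicate 1 at 2741 CPM, where its replicates were at 55.4 and 61.1 CPM. That library is one of the 4 that stood apart, and 71991 of its 82034 counts over these genes belong to CD37.

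The same choice of genes was made from each other population in turn, with at most 3 counts in each of its 3 libraries and before leaving out any names. It gave 216 genes for sgCtrl, 108 for sgKDM5C_4, 207 for sgKDM5C_5, 195 for sgKDM5D_2, 339 for sgKDM5D_4, 125 for sgKDM5C_4_sgKDM5D_2, 112 for sgKDM5C_4_sgKDM5D_4, 182 for sgKDM5C_5_sgKDM5D_2 and 303 for sgKDM5C_5_sgKDM5D_4. Of these, 101 of the sgCtrl genes, 108 of the sgKDM5D_4 genes and 202 of the sgKDM5C_5_sgKDM5D_4 genes were expressed in another population. The control population is thus inside the range of the mutants in how many genes it lacks, and sgKDM5D_4 cells, which express the largest number of the 211 genes, also had the largest number at 3 counts or fewer. Library totals differ between populations, from 71927506 counts in sgKDM5C_5_sgKDM5D_2 to 94602960 in sgKDM5C_4 cells, and their part in these numbers was not tested.

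PDPN had the highest level of the genes found in sgKDM5D_4 cells (chr1:13909960-13944452, plus strand; coordinates of genes here and below are of GRCh37). It encodes podoplanin, a membrane glycoprotein of lymphatic endothelium, podocytes and invasive tumour cells. The sgKDM5D_4 libraries held 904, 1116 and 760 counts, that is 37.3 ± 4.15 CPM (SD, n = 3). The sgCtrl libraries held 0, 3 and 1 counts, the sgKDM5D_2 libraries 1, 3 and 7, and all 12 double mutant libraries 0. No library outside sgKDM5D_4 came near the lowest of the 3. The ratio of pooled levels was 253-fold over sgKDM5D_2 (95% exact interval 141 to 508, counting error only). Against the double mutants that carry the same guide it was at least 345-fold, with 3 counts per library as the floor. The difference between the single mutants was called (log2 fold change 7.94, SE 0.30, edgeR adjusted p = 8.37e-14).

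Here and below a difference was called by edgeR's quasi-likelihood test at a two-sided Benjamini-Hochberg adjusted p under 0.001 over all 17016 genes and a change of more than 1.5-fold. In the comparison of sgKDM5D_4 with sgKDM5D_2, 20.8% of all genes were called, 11.7% as higher and 9.1% as lower. Of the 211 genes 63 were called higher and 2 lower. Because a gene with at most 3 counts in sgCtrl could reach a sum of 120 through 1 population alone, a high share of calls follows from the choice and is not evidence about these genes. Calls and ratios given below for single genes, in populations through which they reached the sum, are likewise a description. The median log2 fold change was 0.58 for the 211 genes and 0.0017 for all genes. Of the 58 genes expressed in sgKDM5D_4 cells 56 were called higher than in sgKDM5D_2 cells, and for 56 the lowest sgKDM5D_4 library lay above each of the other 24 libraries. Both counts are largely set by the choice of the 58 genes, for their level in sgKDM5D_4 and their limit in sgCtrl libraries, and nothing is read from them. Mean levels ranged from 0.617 to 37.3 CPM with a median of 2.31 CPM: 13 genes were at 5 CPM or more, 39 between 1 and 5 and 6 under 1. The median coefficient of variation over the 3 libraries was 17.6%. The 58 genes lay on 18 chromosomes and 49 were protein coding.

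Transcription factors form the first group of sgKDM5D_4 genes. GATA3, a zinc finger factor of T cells, distal nephron and luminal epithelia, had 147, 225 and 227 counts in sgKDM5D_4 cells (8.05 ± 1.59 CPM). The remaining 24 libraries held at most 5 counts of GATA3, so the groups did not overlap. The ratio over sgKDM5D_2 was 300.2-fold (82.7 to 2484, 2 counts in the reference; edgeR adjusted p = 1.59e-12). POU3F3, a POU domain factor of brain and kidney development, had 144, 259 and 196 counts there (7.96 ± 1.38 CPM) against 2, 3 and 1 in sgKDM5D_2 cells (log2 fold change 6.55, SE 0.34, edgeR adjusted p = 1.38e-14). NR0B1, an orphan nuclear receptor of adrenal and gonadal cells also named DAX1, had 132, 160 and 112 counts against 1, 0 and 0 in sgKDM5D_2 (edgeR adjusted p = 1.96e-12). PAX9, a paired box factor of pharyngeal pouch derivatives, had 93, 89 and 101 counts against 0, 1 and 0 (edgeR adjusted p = 4.94e-10). The Krüppel-like factor KLF8 had 70, 82 and 61 counts against 4, 0 and 0 (edgeR adjusted p = 3.36e-08). These genes were chosen for their level in sgKDM5D_4 cells, so the calls and the separation from sgKDM5D_2 libraries follow largely from the choice and are given as a description. Of 328 tested genes in the list of transcription factors used here 9 were among the 211 genes (of 17016 tested). In some population 6 of those were expressed, and 4 in sgKDM5D_4 cells alone. The zinc finger gene ZNF334 had 65, 78 and 62 counts and at most 1 in each other library.

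Genes of secreted factors, and of receptors for other ligands, were expressed there too. BMP4, a bone morphogenetic protein, had 55, 65 and 48 counts in sgKDM5D_4 cells and 0 in each sgKDM5D_2 library, at least 18.7-fold more. GDNF, a ligand of the RET receptor that guides ureteric bud outgrowth, had 35, 28 and 39 counts (1.40 ± 0.371 CPM) against 0, 2 and 0 (edgeR adjusted p = 4.99e-07). PTN, the heparin-binding growth factor pleiotrophin, had 108, 155 and 92 counts against 2, 1 and 2 (log2 fold change 6.05, SE 0.39, edgeR adjusted p = 7.79e-13), and was also expressed in sgKDM5C_4_sgKDM5D_4 cells with 29, 23 and 20 counts. TNFSF12, the cytokine TWEAK, had 62, 67 and 72 counts against 2, 3 and 1 (log2 fold change 5.0, SE 0.51, edgeR adjusted p = 2.22e-08). HHIP, which binds and inhibits hedgehog ligands, had 56, 76 and 86 counts against 1, 2 and 3 (log2 fold change 5.11, SE 0.44, edgeR adjusted p = 6.50e-10) and 14, 13 and 21 in sgKDM5C_5_sgKDM5D_4 cells. NPR3, the clearance receptor of natriuretic peptides, had 43, 42 and 44 counts against 0, 1 and 1 (edgeR adjusted p = 2.31e-09). The adhesion receptor ADGRE1, a macrophage marker in mice, had 137, 141 and 91 counts and at most 1 in sgKDM5D_2 and sgKDM5C_4_sgKDM5D_4 cells, while the leukocyte markers summed to at most 0.643 CPM in the sgKDM5D_4 libraries. These ligands and receptors were mostly at 1 to 5 CPM, below PDPN and the leading transcription factors. Among 105 tested growth factors and morphogens 7 were among the 211 genes (of 17016 tested), and 6 of them were expressed in some population. Only 2 of these, BMP4 and GDNF, were expressed in sgKDM5D_4 cells alone.

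Genes of several other kinds were also expressed in sgKDM5D_4 cells. GLUL, glutamine synthetase, had 135 and 148 counts in 2 sgKDM5D_4 libraries and a little less in the other (5.48 ± 0.303 CPM), a single count each in sgCtrl and sgKDM5D_2 cells and 0 in both double mutants with the guide. The ratio over sgKDM5D_2 was 407-fold, with a wide interval of 72.6 to 16110 that the single reference count allows (edgeR adjusted p = 8.17e-11). SCD5, a stearoyl-CoA desaturase, had 126, 159 and 116 counts against 0, 2 and 2 (edgeR adjusted p = 1.99e-10). PRKCZ, an atypical protein kinase C of cell polarity, had 175, 183 and 198 counts against 4, 2 and 1 (log2 fold change 6.26, SE 0.37, edgeR adjusted p = 3.16e-12). PRKCZ overlaps PRKCZ-AS1 and FAAP20 on the opposite strand, and the strand setting of the counting is not given in the sources used here. CCDC8, a component of the 3M complex, had 198, 224 and 187 counts against 1, 3 and 2 in sgKDM5D_2, a ratio of 101.7 (46.5 to 278; edgeR adjusted p = 2.05e-11). CACNG8, a regulatory subunit of AMPA receptors, had 82, 102 and 112 counts against 5, 4 and 1 (log2 fold change 4.85, SE 0.49, edgeR adjusted p = 5.14e-09). TFR2, the transferrin receptor that senses iron in liver and erythroid cells, had 43, 77 and 69 counts against 0, 1 and 2 (edgeR adjusted p = 3.63e-10), while the red cell markers were at 0 in each library. TENM1, a teneurin of neuronal adhesion, had 104, 159 and 166 counts against 8, 3 and 7 (log2 fold change 4.56, SE 0.36, edgeR adjusted p = 4.93e-11).

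Further genes of sgKDM5D_4 cells came from several of the lists used here. The immune list held 2 genes expressed in this population alone (of 164 tested), the matrix and protease list 2 (of 131) and the germline list 1 (of 79). The metabolic enzyme list held 2 (of 278), and the list of long non-coding RNAs and unnamed transcripts 4 (of 1012). TRIML2, a tripartite motif family member, was next to PDPN in level with 218, 276 and 294 counts (10.7 ± 1.68 CPM) against 2, 10 and 6 in sgKDM5D_2 (log2 fold change 5.43, SE 0.35, edgeR adjusted p = 1.13e-11). The cancer-testis gene SPANXD had 109, 110 and 147 counts against 0, 1 and 0 (edgeR adjusted p = 3.30e-11). SPANXD belongs to a family of near-identical X-linked copies, among which reads can be split, and its level is uncertain for that reason. ADAMTS10, a secreted metalloprotease of fibrillin microfibrils, had 45, 73 and 96 counts and was at 0 in sgKDM5D_2, at least 23.8-fold lower. B4GALNT2, the Sda glycosyltransferase, had 50, 53 and 40 counts against 1, 2 and 0 (edgeR adjusted p = 1.36e-08). CHST1, a keratan sulfate sulfotransferase, had 63, 91 and 59 counts against 5, 6 and 9 (log2 fold change 3.38, SE 0.34, edgeR adjusted p = 1.09e-08). Of the non-coding genes, LINC01224 had 196, 243 and 184 counts against 2 in each sgKDM5D_2 library (log2 fold change 6.62, SE 0.38, edgeR adjusted p = 9.16e-14), and LINC00632 had 32, 33 and 27 against 2, 5 and 2. The distance between both populations in these genes, too, follows largely from the choice.

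In double mutants with the same guide, 53 of the 58 genes of sgKDM5D_4 cells were under 0.5 CPM in each of the 6 libraries of sgKDM5C_4_sgKDM5D_4 and sgKDM5C_5_sgKDM5D_4. The share expressed was 6.90% and 1.72% of the 58 genes in these populations, and 9.95% and 4.74% of all 211 genes, so that nothing particular to the 58 genes is read from it. For 31 of the 58 genes each of the 6 libraries held at most 3 counts, and for 6 genes all were at 0. The other 27 had more than 3 counts in at least 1 of the 6 libraries, among them B4GALNT2 with 12, 9 and 11 counts in sgKDM5C_4_sgKDM5D_4. GATA3, for example, had 0, 1 and 2 counts in sgKDM5C_4_sgKDM5D_4 and 2, 1 and 2 in sgKDM5C_5_sgKDM5D_4 cells. PRKCZ had a single count and CCDC8 a single count over the same 6 libraries. The difference between both sgKDM5D guides was tested for a change between single and double mutants by a contrast added after the data had been seen. In that contrast 17.0% of all genes were called (9.95% as higher in single mutants, 7.09% as lower), as were 33 of the 211 genes, 31 higher and 2 lower. Of the 58 genes 25 were called, a count that the choice of these genes for their level in sgKDM5D_4, one arm of the contrast, largely sets and from which nothing is read. Among them were GATA3 (edgeR adjusted p = 1.88e-05), NR0B1 (edgeR adjusted p = 1.68e-08) and TFR2 (edgeR adjusted p = 1.98e-09). For genes such as PDPN, with 0 counts in each double mutant library, the fit gave no usable estimate of this change. The same contrast for the sgKDM5C guides called 2 of the 211 genes, XK higher in single mutants and CXCR4 lower, where 0.858% of all genes were called (0.253% higher, 0.605% lower).

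**Figure D2:**
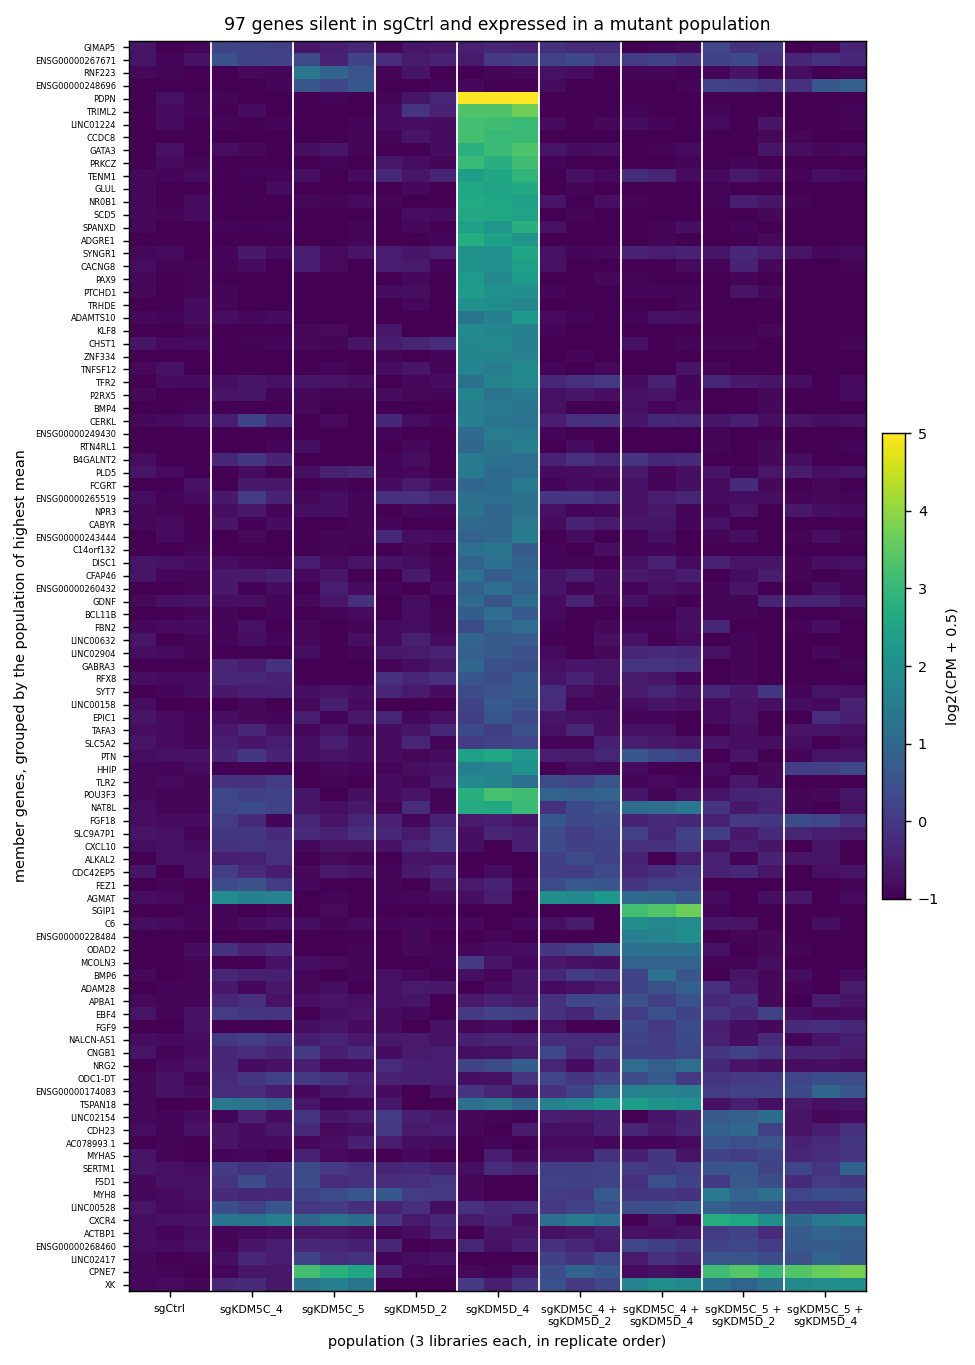
Level of the 97 genes expressed in at least 1 mutant population in each of the 27 libraries, as log2(CPM + 0.5) on a colour scale from dark (low) to yellow (high), with genes in rows grouped by the population of highest mean. The bright block in the 3 sgKDM5D_4 libraries, led by PDPN, holds most of the 58 genes expressed there, and these rows are mostly dark in the double mutants that carry this guide.

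In the double mutant sgKDM5C_4_sgKDM5D_4, 12 genes passed the limit of expression that did so in no other population. SGIP1, an endocytic adaptor of neurons (chr1:66998950-67216822, plus strand), had 238, 292 and 403 counts there (10.2 ± 1.90 CPM) and at most 2 in each of the other 24 libraries. It was at 0 in all sgKDM5D_2, sgKDM5D_4, sgKDM5C_4_sgKDM5D_2 and sgKDM5C_5_sgKDM5D_4 libraries, and its level was at least 85.6-fold that of sgKDM5D_2. Neither single guide population expressed it. C6, the complement component, had 94, 87 and 105 counts (3.17 ± 0.225 CPM) and at most 5 in any other library. Its level was 42.7 times that of sgKDM5C_4 (20.4 to 107) and 118 times that of sgKDM5D_4 (32.3 to 977). SGIP1 and C6 reached the limit on the sum mainly through sgKDM5C_4_sgKDM5D_4 cells. Their ratios thus follow largely from the choice of genes and are given as a description. ODAD2, an outer dynein arm docking protein, had 53, 56 and 59 counts there, 14, 18 and 22 in sgKDM5C_4_sgKDM5D_2, 10, 10 and 9 in sgKDM5C_4 and at most 3 elsewhere, so that it was present in each population with sgKDM5C_4. FGF9, a fibroblast growth factor that maintains nephron progenitors, had 21, 15 and 27 counts in sgKDM5C_4_sgKDM5D_4, 8, 8 and 9 in sgKDM5C_5_sgKDM5D_4 and at most 6 elsewhere. BMP6, a bone morphogenetic protein that induces hepcidin, had 18, 56 and 33 counts there, with replicate 2 above the others, 9, 16 and 10 in sgKDM5C_4_sgKDM5D_2, 7, 9 and 6 in sgKDM5C_4 and at most 3 elsewhere. MCOLN3, a cation channel of endosomes, had 39, 40 and 45 counts and at most 11 elsewhere, and ENSG00000228484 had 68, 80 and 114 and at most 1. ADAM28, a membrane metalloprotease, had 18, 27 and 42 counts and at most 11 elsewhere. The remaining genes that passed 0.5 CPM in this population alone were close to it in others. CNGB1 was at 1.11 times its level in sgKDM5C_4_sgKDM5D_2 (0.735 to 1.68), EBF4 at 1.23 times that in sgKDM5D_4 (0.820 to 1.85), NALCN-AS1 at 1.28 times that in sgKDM5C_4 (0.862 to 1.90) and APBA1 at 1.35 times that in sgKDM5C_4_sgKDM5D_2 (0.928 to 1.99), so that these 4 are set apart by the limit only.

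Few genes passed the limit in only 1 of the remaining populations. In sgKDM5C_4_sgKDM5D_2 cells these were ALKAL2, CDC42EP5, CXCL10, FGF18 and SLC9A7P1. CXCL10, an interferon-induced chemokine, had 24, 17 and 15 counts there and 11, 12 and 18 in sgKDM5C_4_sgKDM5D_4, which overlap. In the double mutants it was lower with sgKDM5C_5 than with sgKDM5C_4 (log2 fold change -2.77, SE 0.43, edgeR adjusted p = 1.19e-05). FGF18 had 32, 20 and 18 counts there and 21, 16 and 12 in sgKDM5C_5_sgKDM5D_4, which also overlap. SLC9A7P1 was at 1.34 times its level in sgKDM5C_4_sgKDM5D_4 (0.892 to 2.015) and CDC42EP5 at 1.52 times (0.972 to 2.39). Both are thus set apart from that population by the limit only. In sgKDM5C_5_sgKDM5D_2 cells CDH23, a cadherin of hair cells, had 39, 35 and 13 counts, and the non-coding LINC02154 had 32, 30 and 35 against at most 14 in any other library. RNF223, a ring finger gene expressed in sgKDM5C_5 cells only, had 45, 48 and 31 counts against at most 3 in every other library, including both double mutants with sgKDM5C_5. ENSG00000248696 also passed the limit in sgKDM5C_5 cells only, but was at 0.984 times its level in sgKDM5C_5_sgKDM5D_4 (0.7065 to 1.37). ACTBP1, an actin pseudogene whose reads can be shared with its parent and copies, had 28, 31 and 37 counts in sgKDM5C_5_sgKDM5D_4 cells and 16, 15 and 7 in sgKDM5C_5_sgKDM5D_2. GIMAP5, a GTPase of lymphocyte survival, had 17, 28 and 16 counts in sgKDM5C_4 and 21, 10 and 10 in sgKDM5C_5_sgKDM5D_2 cells, and these overlap.

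Some genes were expressed in several populations that carry the same guide. AGMAT, an agmatinase-like mitochondrial enzyme of liver and kidney (chr1:15898194-15911546, minus strand), had 79, 113 and 71 counts in sgKDM5C_4, 102, 89 and 91 in sgKDM5C_4_sgKDM5D_2 and 44, 44 and 34 in sgKDM5C_4_sgKDM5D_4 cells. Every other library held at most 6 counts. AGMAT was the only one of the 211 genes expressed in all populations with sgKDM5C_4 and in no other. In sgKDM5C_5 cells, 0, 1 and 0 counts were found, and the difference to sgKDM5C_4 was called in single mutants (edgeR adjusted p = 4.21e-10) and in double mutants (log2 fold change -4.97, SE 0.35, edgeR adjusted p = 1.24e-11). AGMAT overlaps the abundant DNAJC16 on the opposite strand, and the part of this overlap in its counts was not tested. FEZ1, a kinesin adaptor of axons, followed the same guide with 20, 39 and 14 counts in sgKDM5C_4, 24, 31 and 23 in sgKDM5C_4_sgKDM5D_2 and 12, 19 and 20 in sgKDM5C_4_sgKDM5D_4 cells. Its populations with sgKDM5C_5 had at most 1 count per library (edgeR adjusted p = 1.38e-08 in double mutants). FEZ1, too, reached the sum mainly through the populations with sgKDM5C_4, so this call is a description. It overlaps EI24 and STT3A on the opposite strand.

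CPNE7, a copine that binds membranes in a calcium-dependent way (chr16:89642166-89663654, plus strand), showed the reverse preference. It had 188, 219 and 176 counts in sgKDM5C_5 cells (6.87 ± 1.71 CPM), 247, 243 and 164 in sgKDM5C_5_sgKDM5D_2 (8.80 ± 1.22 CPM) and 246, 255 and 385 in sgKDM5C_5_sgKDM5D_4 cells (11.6 ± 1.60 CPM). In the other guide family it had 1, 6 and 4 counts in sgKDM5C_4 and 2, 3 and 2 in sgKDM5C_4_sgKDM5D_4, but 25, 40 and 24 in sgKDM5C_4_sgKDM5D_2 cells. The guide difference was called in single mutants (log2 fold change 5.82, SE 0.32, edgeR adjusted p = 4.32e-13) and in double mutants (log2 fold change 5.06, SE 0.20, edgeR adjusted p = 1.13e-16). Most of the counts by which CPNE7 was chosen came from the populations with sgKDM5C_5, so these calls are given as a description. Of the populations with sgKDM5C_5 none overlapped with any sgKDM5C_4 library. By mean level sgKDM5C_5_sgKDM5D_4 stood first, then sgKDM5C_5_sgKDM5D_2, then sgKDM5C_5, and neighbours in this order overlapped in their libraries.

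TSPAN18, a tetraspanin (chr11:44748015-44953974, plus strand), was expressed in all 3 populations with sgKDM5C_4 and in sgKDM5D_4 cells. The counts were 53, 81 and 41 in sgKDM5C_4, 40, 60 and 35 in sgKDM5D_4, 78, 83 and 86 in sgKDM5C_4_sgKDM5D_2 and 128, 112 and 116 in sgKDM5C_4_sgKDM5D_4 cells, and at most 5 in every other library. The sgKDM5C_4 and sgKDM5D_4 single mutants overlapped, at 1.86 ± 0.313 and 1.79 ± 0.30 CPM. Lower levels with sgKDM5C_5 were called both in single mutants (log2 fold change -4.91, SE 0.45, edgeR adjusted p = 7.48e-09) and in double mutants (-4.67, SE 0.27, edgeR adjusted p = 1.87e-13). NAT8L, which makes N-acetylaspartate, was also expressed in sgKDM5C_4, sgKDM5D_4 and sgKDM5C_4_sgKDM5D_4 cells, with 17, 33 and 18, 131, 165 and 184, and 47, 51 and 69 counts in that order. POU3F3 had 18, 26 and 17 counts in sgKDM5C_4 and 42, 36 and 31 in sgKDM5C_4_sgKDM5D_2 cells, but 4, 1 and 4 in sgKDM5C_4_sgKDM5D_4 cells, which carry both guides whose single mutants express it. TLR2, the receptor of bacterial lipoproteins, was likewise low in that double mutant, with 10, 18 and 14 counts in sgKDM5C_4, 71, 79 and 42 in sgKDM5D_4, 24, 20 and 22 in sgKDM5C_4_sgKDM5D_2 and 1, 2 and 1 in sgKDM5C_4_sgKDM5D_4 cells. NRG2, a ligand of ERBB receptors, had 48, 37 and 57 counts in sgKDM5C_4_sgKDM5D_4 cells, more than the 15, 23 and 28 in sgKDM5D_4 cells.

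CXCR4, the receptor of the chemokine CXCL12 and a gene induced by hypoxia signalling in ccRCC (chr2:136871919-136876747, minus strand), was expressed in 5 populations. The sgCtrl libraries held 2, 3 and 3 counts. It had 49, 86 and 66 counts in sgKDM5C_4 and 32, 69 and 55 in sgKDM5C_5 cells, against 12, 4 and 8 in sgKDM5D_2 and 4, 7 and 2 in sgKDM5D_4 cells. Every sgKDM5C single mutant library lay above every sgKDM5D single mutant library (log2 fold change of sgKDM5D against sgKDM5C -3.01, SE 0.26, edgeR adjusted p = 4.46e-10). Among double mutants it had 51, 66 and 40 counts in sgKDM5C_4_sgKDM5D_2, 179, 131 and 71 in sgKDM5C_5_sgKDM5D_2 and 38, 49 and 76 in sgKDM5C_5_sgKDM5D_4 cells, but 0, 4 and 1 in sgKDM5C_4_sgKDM5D_4 cells. The sgKDM5C_5_sgKDM5D_2 level of 4.99 ± 1.42 CPM was the highest and 50.2-fold that of sgCtrl (25.2 to 117), a ratio that rests on the choice of genes. The levels of sgKDM5C_4, sgKDM5C_5, sgKDM5C_4_sgKDM5D_2 and sgKDM5C_5_sgKDM5D_4, at 1.74 to 2.15 CPM, overlapped in their libraries. In double mutants CXCR4 was higher with sgKDM5C_5 than with sgKDM5C_4 (log2 fold change 3.26, SE 0.26, edgeR adjusted p = 1.51e-10), and lower with sgKDM5D_4 than with sgKDM5D_2 (-3.13, SE 0.26, edgeR adjusted p = 2.33e-09). Both comparisons average populations, and sgKDM5C_4_sgKDM5D_4 is in the lower side of each.

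XK, which encodes a membrane protein that carries the Kx blood group antigen (chrX:37545044-37591383, plus strand), was expressed in sgKDM5C_5 cells and in 3 double mutants. It had 43, 87 and 66 counts in sgKDM5C_5, 76, 102 and 101 in sgKDM5C_4_sgKDM5D_4, 56, 34 and 40 in sgKDM5C_5_sgKDM5D_2 and 77, 74 and 102 in sgKDM5C_5_sgKDM5D_4 cells. sgKDM5C_4_sgKDM5D_2 cells lay at the limit with 28, 14 and 16 counts, and sgKDM5D_2 cells had 0 in each library. The red cell markers were at 0 in each library. MYH8, a myosin heavy chain of developing muscle, was the 1 gene expressed in sgKDM5D_2 cells, with 28, 12 and 13 counts there against 1, 0 and 0 in sgKDM5D_4 cells. It was highest in sgKDM5C_5_sgKDM5D_2 cells with 64, 32 and 38 counts. MYH8 overlaps the non-coding MYHAS, itself one of the 211 genes, on the opposite strand. FSD1, a microtubule-associated protein, had 9, 9 and 12 counts in sgKDM5D_2, 1, 0 and 0 in sgKDM5D_4 and 8 to 36 in every other mutant library. MYH8 and FSD1 were the 2 genes called lower in sgKDM5D_4 than in sgKDM5D_2 cells.

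**Figure D3:**
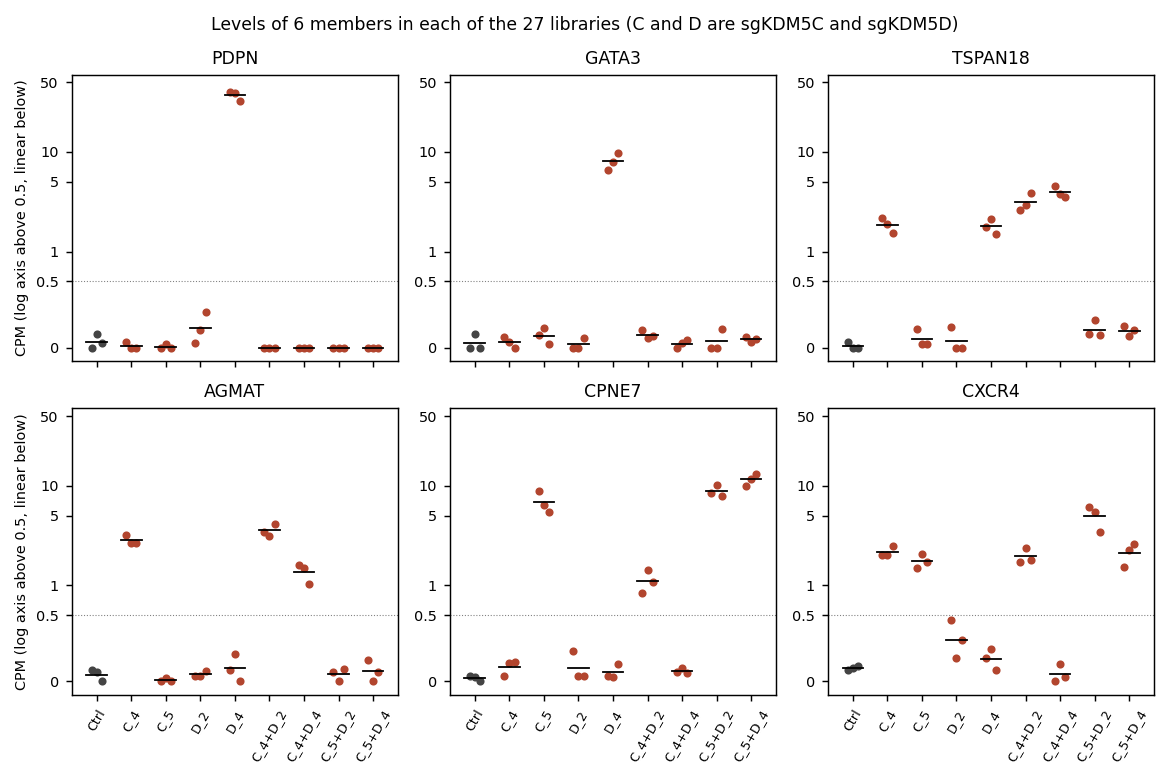
CPM of PDPN, GATA3, TSPAN18, AGMAT, CPNE7 and CXCR4 in each library by population, 3 points each with a line at the mean and a dotted line at 0.5 CPM. The axis is the same for each gene, logarithmic above 0.5 CPM and linear below. PDPN and GATA3 stand out in sgKDM5D_4 only, AGMAT in the 3 populations with sgKDM5C_4, CPNE7 in those with sgKDM5C_5, and CXCR4 is low in the sgKDM5D single mutants and in sgKDM5C_4_sgKDM5D_4.

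Comparisons among mutant populations gave these counts over all 211 genes, with the caution on calls given for sgKDM5D_4. For sgKDM5C_5 against sgKDM5C_4 4 genes were called higher and 15 lower, where 3.71% of all genes were called (0.74% higher, 2.97% lower). The higher genes were CPNE7, XK, RNF223 and ENSG00000248696. In double mutants the same guide comparison called 9 genes higher and 25 lower, where 7.08% of all genes were called (2.78% higher, 4.3% lower). Without the 4 libraries that stood apart, or without sgKDM5C_5 replicate 2 or replicate 3 alone, the first count was 11 instead of 19, and it was 12 without sgKDM5C_5 replicate 1. For sgKDM5D against sgKDM5C single mutants 29 genes were called higher and 9 lower, where 9.81% of all genes were called (5.64% higher, 4.17% lower). This comparison averages sgKDM5D_2 and sgKDM5D_4, and POU3F3, for example, was called higher (log2 fold change 1.91, SE 0.44, edgeR adjusted p = 9.53e-04) with 2, 3 and 1 counts in the sgKDM5D_2 libraries. That call was lost in 25 of 34 alternative settings, among them the replicate block and the fit without sgCtrl libraries, with log2 fold changes of 1.58 to 2.08.

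For double against single mutants 23 genes were called higher and 5 lower, where 6.37% of all genes were called (4.01% higher, 2.36% lower). The leading ones were XK (log2 fold change 3.40, SE 0.20, edgeR adjusted p = 1.23e-12), CYP8B1, the sterol 12-hydroxylase of bile acid synthesis (3.28, SE 0.47, edgeR adjusted p = 2.61e-06), and the non-coding LINC02417 (3.07, SE 0.29, edgeR adjusted p = 5.81e-09). This comparison averages populations and need not hold for each of them. XK was expressed in the single mutant sgKDM5C_5, at a level above that of the double mutant sgKDM5C_4_sgKDM5D_2, which did not express it. CYP8B1 was expressed in no population at 0.5 CPM, with 2 to 22 counts in the 12 double mutant libraries and at most 3 in the single mutants. CHST1 and LINC00632 were among the 5 called lower. The CHST1 call was lost without sgKDM5C_4 replicate 2 (log2 fold change -3.34) or replicate 3 (-3.27). The LINC00632 call was lost with a replicate block (-2.97) and on leaving out any of 14 single libraries (-2.66 to -2.96). For sgKDM5D_4 against sgKDM5D_2 in double mutants 3 genes were called higher and 6 lower, where 2.2% of all genes were called (0.535% higher, 1.66% lower). The higher ones were XK, FGF9 and ENSG00000174083. The number called for the sgKDM5D guides was thus 65 in single and 9 in double mutants, beside 20.8% and 2.2% of all genes. In a test for any difference among the 8 mutant populations 130 of the 211 genes differed (edgeR adjusted p under 0.001), where 56.4% of all genes did. Of the 97 expressed genes 95 differed and of the 114 others 35, a split that the choice of the 97 by their levels in the same libraries largely sets, so nothing is read from it.

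Some genes passed the sum of 120 through 1 library. CD37, a tetraspanin of leukocytes, had 71991 counts in sgKDM5C_4_sgKDM5D_2 replicate 1, 0 and 1 in its replicates and at most 1 in each of the remaining 24 libraries. Summed leukocyte markers were at most 0.802 CPM in this population, and that value was in the same library. The leukocyte marker PTPRC had 17 counts there and 1 in each of the replicates. Of the neighbours of CD37 on the chromosome, TEAD2 had 1, 0 and 0 counts in this population and KASH5 had 6, 7 and 3. The unmatched identifier ENSG00000254262 had 8256 counts in the same library and 0 in its replicates. A gene outside the 211, GPHN, had 55815 counts there against 465 or fewer in the replicates. The cause was not tested, and this library is one of the 4 that stood apart. PPP1R16B had 206 of 210 counts in sgKDM5D_2 replicate 3, the pseudogene ENSG00000270818 162 of 163 in sgKDM5D_4 replicate 1, FBXO40 144 of 167 in sgKDM5C_4_sgKDM5D_4 replicate 1 and LHX9 93 of 178 in sgKDM5C_5_sgKDM5D_4 replicate 2. None of the 6 genes reached 0.5 CPM in all 3 libraries of a population, so none counts as expressed. CD37, ENSG00000254262, PPP1R16B and FBXO40 nonetheless passed the test among the 8 mutant populations (edgeR adjusted p between 4.40e-07 and 9.36e-04), so that this test can be passed through 1 library.

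**Figure D4:**
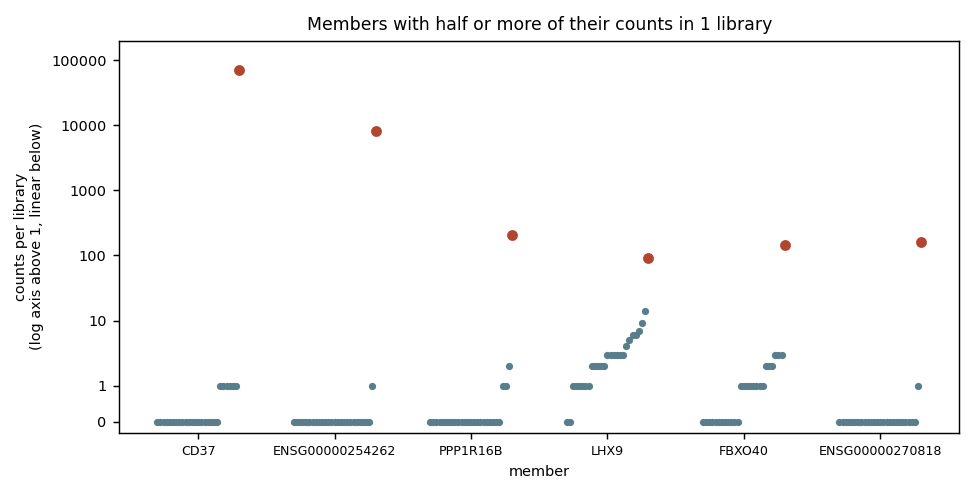
Counts in each of the 27 libraries, sorted, on an axis that is logarithmic above 1 and linear below, for the 6 genes with at least 50% of their counts in 1 library. The red point is the highest library of each gene, at 71991 counts for CD37 and 93 counts for LHX9, and stands above all others.

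Most of the 114 genes expressed in no population lay near the limit on the sum. In detail, 90 of the 211 genes had 120 to 150 counts, of which 16 were expressed in some population, 86 had over 150 to 300 counts (49 expressed) and 35 had more (32 expressed). Just inside the limit on the sum were BCL11B and ZNF826P with 120 counts each, and just outside RPL10AP2 and AC007308.6 with 119. On the side of the control limit 163 genes had a maximum of exactly 4 counts in sgCtrl, among them HAS2, a hyaluronan synthase, with 1621 counts over the 27 libraries and CDKN1C, a cell cycle inhibitor, with 929. The limit of 3 counts was equal to 0.103 to 0.130 CPM in the sgCtrl libraries.

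Gene families were taken by symbol, and their shares are not ranked, since symbols also take in non-coding genes and pseudogenes and the 211 genes are few beside the 17016 tested. Growth factors and morphogens took in 7 of 105 tested genes, cytokines and chemokines 2 of 47, extracellular matrix and protease genes 4 of 131, interferon and immune genes 3 of 164, other surface receptors 3 of 152, and germline genes 1 of 79. The symbols of G protein-coupled receptors took in 4 of 147, among them the non-coding S1PR1-DT, and those of adhesion genes 4 of 203, among them DSG2-AS1. The symbols of ion channels took in 5 of 138, among them the non-coding KCNH1-IT1, and those of metabolic enzymes 9 of 278, among them the pseudogene CYP4F35P and the antisense RDH10-AS1. Zinc finger symbols took in 3 of 525, among them the pseudogene ZNF826P, and transporter symbols 3 of 399, among them the pseudogene SLC9A7P1. The symbols of long non-coding RNAs and unnamed transcripts took in 21 of 1012, among them the pseudogene RP11-175I17.2. Of these 21 genes 9 were expressed in some population. The keratin list held KRTAP5-1 alone, with 19, 16 and 8 counts in sgKDM5C_5_sgKDM5D_2 cells.

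By type, 122 of the 211 genes (57.8%) were protein coding, against 76.1% of all 17016 genes, 46 (21.8%) were lncRNAs, against 12.3%, and 18 were processed pseudogenes. Among the 97 expressed genes 74 (76.3%) were protein coding. Chromosome 1 held 24 of the genes with a known position (11.8%, against 10.2% of all tested genes), chromosome 19 held 19 (9.36% against 6.69%) and chromosome X held 16 (7.88% against 3.30%). Of the genes expressed in sgKDM5D_4 cells alone, 14.6% lay on chromosome X. Neighbouring members were rare: SERTM1, GAPDHP34 and TCEAL4P1 on chromosome 13 and MYHAS with MYH8 on chromosome 17 were the pairs within 100 kb. Among the genes named above, DSG2-AS1 overlaps DSG2 (269.6 CPM on average), ENSG00000228484 overlaps ABLIM1 (195 CPM), ENSG00000248696 overlaps HMGXB3 (109.8 CPM) and TENM1 overlaps STAG2 (101 CPM). CDH23, BMP6, NALCN-AS1, PAX9 and KRTAP5-1 overlap VSIR, TXNDC5, NALCN, SLC25A21 and KRTAP5-AS1 (4.52 CPM or less), and RDH10-AS1 overlaps RDH10 (20.5 CPM). All of these overlaps are on the opposite strand. ACTBP1 and KCNH1-IT1 overlap LINC01186 and KCNH1 on the same strand, and the part of these overlaps in their counts was not tested.

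Promoters of 101 of the 211 genes and of 11414 of the 17016 genes were matched in RefSeq by symbol. CpG-rich windows, as defined above, made up 58.4% of the promoters of the 211 genes, 60% of those expressed in some population, 57.6% of those expressed in sgKDM5D_4 cells alone, 77.8% of all tested genes and 46.9% of all 27305 promoters in the table. The letters TATAAA, on either strand, occurred in 16.8% of the promoters of the 211 genes, 6.03% of the tested genes and 11.95% of all promoters. PDPN, AGMAT and CXCR4 held it. The letters GGGCGG, on either strand, occurred in 58.4%, 68.55% and 44.6%, and CACGTG in 9.90%, 9.87% and 7.435%. By CpG richness and GGGCGG the promoters of the 211 genes lay between those of the tested genes and those of all promoters, while TATAAA was more frequent among them than in either. Promoter shares were compared as a description and a match of letters is not a binding site.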

How the data were processed

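RNA was extracted with NucleoSpin RNA and sequenced from TruSeq Stranded libraries, with 3 libraries for each of 9 populations. Per the labels, the authors trimmed reads (Trimmomatic 0.38), aligned them to GRCh37 (STAR 2.5.2b) and deposited raw counts per Ensembl gene. The counting tool, its strand setting and the annotation are not given in the sources used here. Symbols and coordinates came from GENCODE release 44 mapped to GRCh37 and matched 16564 of the 17016 tested identifiers; 8 members had no match and are named by identifier.

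Of 57773 identifiers, the 17016 with a sum of at least 120 were fitted with edgeR 4.0.16 (R 4.3.3; TMM, quasi-likelihood, 1 coefficient per population, all 27 libraries), with two-sided tests among mutant populations and none against sgCtrl. The filter on the sum follows the study's methods. The common biological coefficient of variation was 9.73%. On simulated counts for the comparison of sgKDM5D_4 with sgKDM5D_2 over 17016 genes, the call recovered 70% of 2-fold, 90% of 4-fold and 98% of 8-fold changes. The changed genes were drawn at random from all tested genes, so these shares are not those of genes near the floor. Intervals of ratios are exact at 95% and cover counting error only. With 20172482 to 43383929 counts per library, 3 counts served as the floor.

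The members, gene lists and tests were chosen with earlier results of these data known. The rule for named genes took the 10 highest mean levels, the 2 highest genes expressed in 1 population alone, the 2 largest changes called per comparison and direction, the highest of each gene list, and genes beside the thresholds; others, such as GATA3 and GLUL, were named after their values were seen. DESeq2 1.42.0, other filters, thresholds and scalings, a replicate block and leaving out each library were tried as alternatives.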

Additional observations from a re-analysis of the deposited data

Results flagged for a closer look

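The difference between both guides to 1 gene was itself compared between single and double mutants, by edgeR contrasts added after the data had been seen, and the results below passed that test. For the sgKDM5C guides 2 of the 211 genes differed, CXCR4 (adjusted p = 8.32e-07) and XK (adjusted p = 4.46e-05), where 0.858% of all genes did. CXCR4 had a higher mean level with sgKDM5C_5 than with sgKDM5C_4 in double mutants, and overlapping levels in single mutants. The sgKDM5C_4 side averages sgKDM5C_4_sgKDM5D_4, which did not express CXCR4, and sgKDM5C_4_sgKDM5D_2, which did. The libraries of sgKDM5C_4_sgKDM5D_2 overlapped with those of sgKDM5C_5_sgKDM5D_4 and lay below those of sgKDM5C_5_sgKDM5D_2. For the sgKDM5D guides 33 genes differed, where 17.0% of all genes did. Of these, 25 were expressed in sgKDM5D_4 cells, one arm of this contrast. The choice of genes by their level in that arm largely sets this count, so it is a description. The adjusted p was 5.97e-13 for POU3F3, 4.24e-09 for TLR2, 3.55e-09 for NAT8L, 2.13e-06 for TSPAN18 and 3.75e-06 for LINC01224. It was 2.50e-04 for CACNG8, 1.87e-04 for GIMAP5, 6.01e-05 for MYH8, 5.45e-04 for FSD1 and 5.82e-04 for XK. POU3F3 and TLR2 were higher with sgKDM5D_4 in single mutants and lower with it in double mutants.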

How the results depend on the processing

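Counts below are of the 211 genes unless the limits that choose them were changed. The alternative threshold for calls changed the adjusted p and the fold together. The number of members depends on the limits: it was 47 when each sgCtrl library could hold 1 count at most and 592 when it could hold 5, and 1049 or 53 with a sum of at least 60 or 240, in place of 211. Without sgCtrl replicate 1, 2 or 3 it was 292, 428 or 334. Genes expressed in any mutant population numbered 171 at 0.25 CPM and 62 at 1 CPM, in place of 97. At 0.25 and 1 CPM the counts were 30 and 3 for sgKDM5C_4, 13 and 3 for sgKDM5C_5, 9 and 0 for sgKDM5D_2, 49 and 4 for sgKDM5C_4_sgKDM5D_2, 59 and 11 for sgKDM5C_4_sgKDM5D_4, 54 and 5 for sgKDM5C_5_sgKDM5D_2 and 28 and 5 for sgKDM5C_5_sgKDM5D_4. With 10 counts as the limit they were 18 for sgKDM5C_4, 10 for sgKDM5C_5, 28 for sgKDM5C_4_sgKDM5D_2 and 37 for sgKDM5C_4_sgKDM5D_4. With 2 of 3 libraries enough they were 3 for sgKDM5D_2, 26 for sgKDM5C_4_sgKDM5D_2, 34 for sgKDM5C_4_sgKDM5D_4 and 27 for sgKDM5C_5_sgKDM5D_2, and with RLE scaling 0 for sgKDM5D_2. At an adjusted p under 0.05 and over 2-fold, calls numbered 39 for the sgKDM5C guides, 79 for sgKDM5D against sgKDM5C, 56 for double against single mutants, and 59 and 19 for the sgKDM5C and sgKDM5D guides in double mutants. Without the 4 libraries that stood apart the sgKDM5C guides gave 11.

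Leaving out 1 library gave 11 to 20 calls for the sgKDM5C guides, 59 to 67 for the sgKDM5D guides, 32 to 40 for sgKDM5D against sgKDM5C, 25 to 30 for double against single mutants, 29 to 34 and 7 to 10 for the guides in double mutants, 121 to 131 among all 8 populations, and 2 and 26 to 34 for the changes between single and double mutants. Expressed genes then numbered 97 to 102 in any population, 9 in sgKDM5C_4, 6 to 8 in sgKDM5C_5, 1 to 2 in sgKDM5D_2, 60 to 61 in sgKDM5D_4, 16 to 22, 23 to 27, 15 to 22 and 11 to 13 in the double mutants in the order above. The highest value for sgKDM5D_2 came without its replicate 2 or 3, and that for sgKDM5C_5_sgKDM5D_2 without its replicate 3. By correlation the replicate numbers showed no general pairing of the libraries (median correlation of same-numbered deviations -0.048, from -0.67 to 0.74 over 108 pairs). Of these pairs 32 were over 0.1, and 5 of 27 libraries correlated best with their own number. A pairing of some libraries by culture or preparation cannot be told from these values. With the replicate number as a block the calls were 19, 65, 35, 27, 30 and 8 in the order above, 129 among all populations, and 2 and 31. Of 83 calls for named genes 64 held under every alternative run, and the cause of the other changes was not tested.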
